A study of Mus musculus with 6 samples.

Results

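The 10 genes described here encode the transcription factors of the MYC network, and their transcripts were measured by RNA sequencing in mouse embryonic fibroblasts (MEFs) with and without the mitochondrial protease YME1L. They were chosen by name (Myc, Mycn, Mycl, Max, Mxd1, Mxd3, Mxd4, Mxi1, Mnt and Mga), each was found at a locus of its own among the 51499 loci of the count table, and 9 of the 10 had enough fragments to be among the 13867 loci tested. The 3 wild-type (WT) cultures carried Yme1l alleles flanked by loxP sites, and the 3 Yme1l-/- cultures had lost the gene. Both genotypes share the floxed background, the SV40 large T antigen that made the cells immortal and a treatment with Cre, and the cells were cloned before their genotype was determined. How many clones stand behind the 3 cultures of a genotype is not given in the sources used here, so a difference between clones and a difference between genotypes cannot be told apart. P-values therefore measure the spread between cultures of a genotype only.

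MYC proteins bind DNA as dimers with MAX, through a basic helix-loop-helix leucine zipper, and raise transcription of genes for growth, ribosome production and metabolism. The proteins of the MXD group (the products of Mxd1, Mxd3, Mxd4 and Mxi1) and MNT compete for the same partner and the same DNA and bring the SIN3 corepressor with its histone deacetylases. MGA, the largest protein of the network, also dimerizes with MAX and belongs to a variant polycomb repressive complex. In fibroblasts Myc is a classical serum-responsive gene, and its messenger RNA and protein are short-lived.

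The letters that MAX dimers read, the E-box CACGTG, occur in the promoters of some of these genes. These stretches are printed to show which members carry the network's own recognition sequence in their promoter windows. A stretch of Mga with the related motif CACGCG is printed beside them. Windows from 250 bases before to 50 bases after the transcription start (RefSeq, build GRCm38.p6) were available for 9 of the 10 members, all but Myc. Capitals mark the motif, and each sequence is written 5′ to 3′ on the strand of its gene.
Max: cccggcgcggtgagcccggtCACGTG
Mnt: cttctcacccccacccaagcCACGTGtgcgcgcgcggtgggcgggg
Mxd4: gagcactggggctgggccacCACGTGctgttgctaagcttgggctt
Mga: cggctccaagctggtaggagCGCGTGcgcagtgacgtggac
The Max stretch lies at chr12:76962246-76962271 on the minus strand and its E-box spans the start site, from position -3 to 3. The Mnt stretch lies at chr11:74830781-74830826 on the plus strand, with the motif from -123 to -118, and the Mxd4 stretch at chr5:34187904-34187949 on the minus strand, with the motif from -219 to -214. The E-box, which reads the same on both strands, was present in 3 of the 9 member genes with windows and in 7.15% of all 32851 windows. These windows belong to 27025 genes, and a gene can have several. Counts of genes and shares of windows are thus unlike units. The related motif CACGCG was searched on both strands and was present in 9.27% of windows and in 2 member genes, Mycl and Mga. In Mga it appears as CGCGTG from -21 to -16, at chr2:119897187-119897227 on the plus strand. In Mycl, whose stretch is not printed, it lies from -20 to -15. A match of letters is a description and not evidence of binding.

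The libraries held 33180867 to 34012520 fragments in WT and 34624075 to 49351107 in Yme1l-/- cultures, and the first principal component, with 90.7% of the variance, separated the genotypes. Values are given below as fragments of a locus per 1e6 fragments of the library (CPM), scaled between libraries by TMM. Yme1l1, the targeted gene, fell from 189 ± 5.16 CPM to 39.1 ± 1.34 CPM (mean ± SD, n = 3 each), which was 20.7% of WT. Of 10 fibroblast markers, 8 passed the filter on low counts and their summed level was 10840 to 11400 CPM in WT and 6647 to 7133 CPM in Yme1l-/- cultures, with 1 marker higher and 6 lower. Thy1 and Lum were near 0 in both genotypes. Summed markers of other cell types stayed low, at 1.62 to 1.87 CPM in WT and 0.179 to 0.286 CPM in Yme1l-/- cultures for epithelial cells, 0.827 to 1.38 and 1.63 to 1.98 CPM for endothelial cells, and 1.68 to 1.87 and 3.46 to 3.93 CPM for leukocytes. Fewer cells of a kind and less RNA per cell cannot be told apart in such bulk cultures, and the part of these differences in the results below was not tested.

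Among the 9 members tested, 3 rose, 3 fell and 3 did not pass the threshold (quasi-likelihood test of edgeR, adjusted p under 0.05 by Benjamini-Hochberg over the whole table). Mycl, Mxd1 and Mxd3 were higher in Yme1l-/- cultures, while Myc, Max and Mga were lower. Of all loci tested, 67.7% passed the same threshold, 33.6% higher and 34.1% lower, so the 66.7% of members that passed was near the background. The median log2 fold change of the members was 0.06, against -0.0041 over all loci tested. The cultures of the genotypes did not overlap for 5 of the 9 members, against 71.9% of loci. None of the 9 members passed the threshold with at least a 2-fold change, which 17.7% of loci did.

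**Figure D1:**
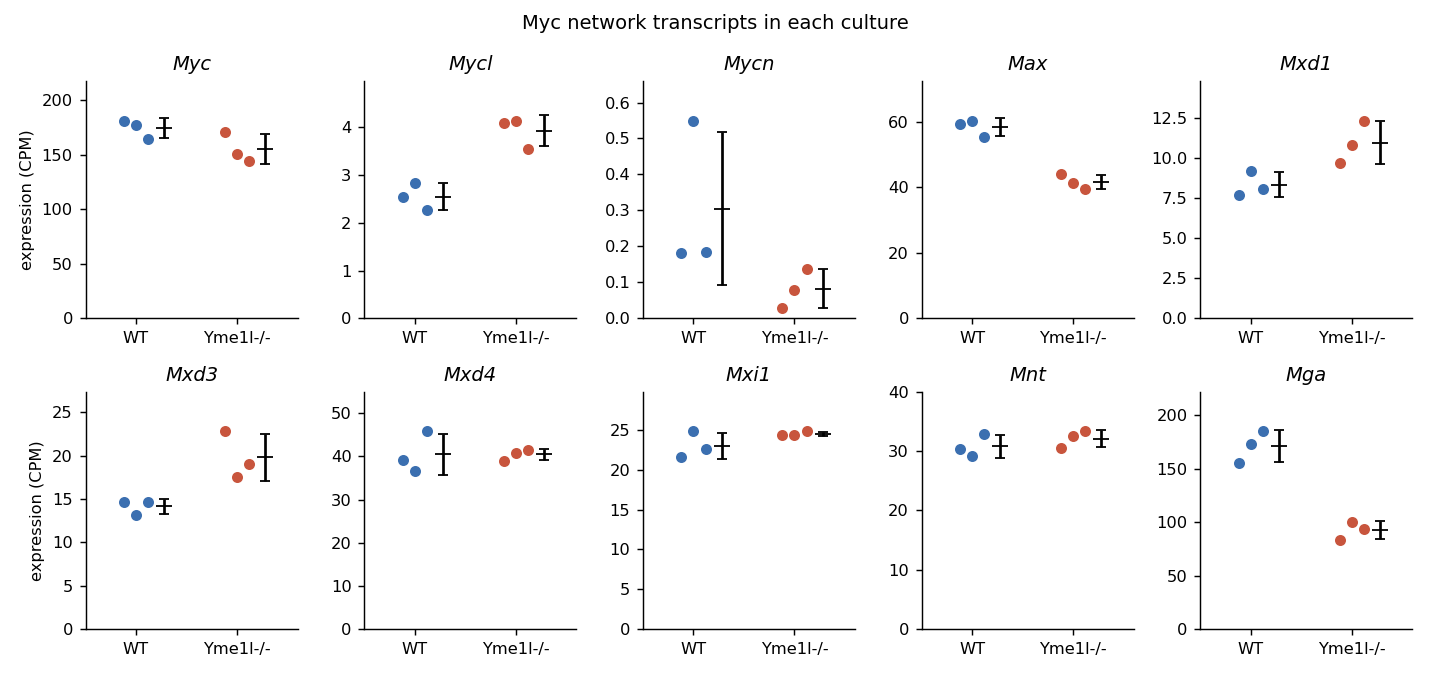
Level of each of the 10 members in every culture, in CPM on an axis of its own from 0, with points for single cultures and black marks for the mean ± SD of 3 cultures per genotype. Mga stands out by the gap between its WT cultures (155 to 185 CPM) and its Yme1l-/- cultures (83.5 to 100.4 CPM), whereas the Myc cultures overlap.

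Myc, the network's founding activator, lies at chr15:61985391-61990374 on the plus strand (GRCm38). Its level was 182, 178 and 165 CPM in the WT cultures and 171, 150.5 and 144 CPM in the Yme1l-/- cultures. The highest Yme1l-/- culture lay above the lowest WT culture, so the groups overlapped. The mean fell from 175 ± 8.84 CPM to 155 ± 14.2 CPM (SD, n = 3 each). The log2 fold change was -0.17 ± 0.06 (SE; 95% interval -0.31 to -0.03; edgeR's quasi-likelihood test, adjusted p = 0.0378). Its sign held in all 13 alternative fits, but its call depended on single cultures. Leaving out 1 culture at a time ended the call in 4 of 6 fits, with log2 fold changes of -0.14 without WT replicate 1 (adjusted p = 0.115), -0.16 without WT replicate 2 (0.0966), -0.15 without Yme1l-/- replicate 2 (0.12) and -0.12 without Yme1l-/- replicate 3 (0.164). It was also lost under upper-quartile scaling, with a log2 fold change of -0.11 (adjusted p = 0.158). Without Yme1l-/- replicate 1, the highest of its group, the log2 fold change was -0.24.

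The position of Myc on chromosome 15 bears on how this value reads, because the median log2 fold change of that chromosome, 0.59, was the highest of all, with 81.3% of its 545 tested loci above 0. Relative to the median of the other 544 loci of its chromosome Myc lay at -0.76, and 14.3% of them had a lower value. Relative to that median and to its own WT mean, Myc stood at 0.05, 0.02 and -0.08 in the WT cultures and at -0.63, -0.82 and -0.87 in the Yme1l-/- cultures. On this scale the groups were far apart. With chromosome medians removed in the edgeR fit, the log2 fold change of Myc was -0.76 ± 0.07 (adjusted p = 1.7e-06).

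**Figure D2:**
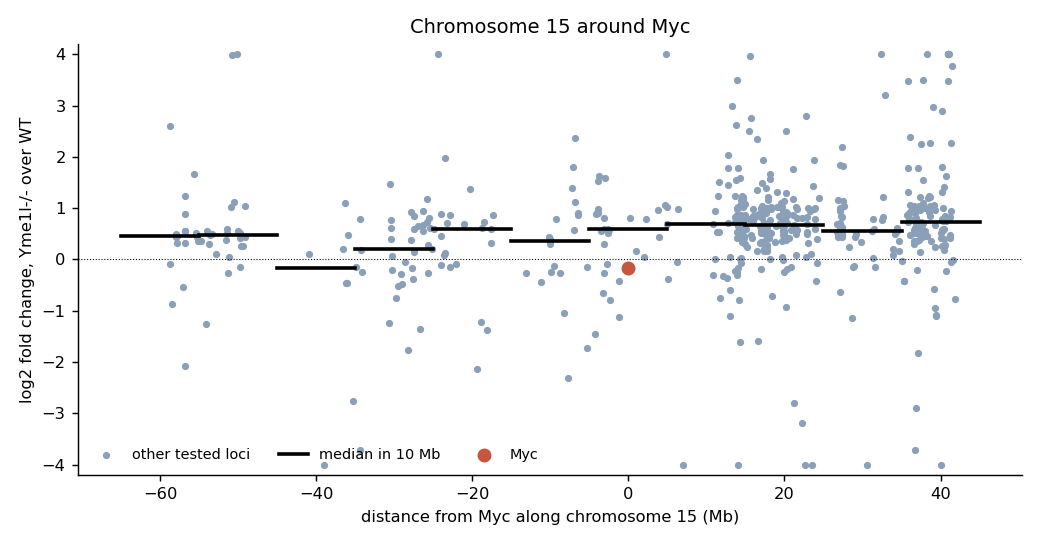
Log2 fold change (Yme1l-/- over WT) of each tested locus of chromosome 15 against its distance from Myc in Mb, with the median of each 10 Mb bin as a line. Most points lie above 0, Myc lies just below it, and 18 points beyond the axis limits of 4 log2 units are drawn at the edge.

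Loci around Myc differed in whether they followed the chromosome. Of the 31 other tested loci within 5 Mb of Myc, 24 had a log2 fold change above 0, with a median of 0.60, and 22 were called higher and 4 lower in Yme1l-/- cultures. In the 10 Mb bins along the chromosome the medians lay between -0.17, in a bin of 8 loci, and 0.73, and that of the bin centred on Myc was 0.59 over 32 loci. The nearest tested locus was that of Pvt1, the long noncoding RNA gene downstream of Myc, which began 47.6 kb away and was counted together with the genes Gm27718, Gm27913 and Gm27957. Pvt1 stood at 15.2, 17.0 and 18.5 CPM in WT and at 29.4, 31.8 and 27.6 CPM in Yme1l-/- cultures. Every Yme1l-/- culture was thus above every WT culture, and the log2 fold change was 0.81 ± 0.08 (adjusted p = 5.55e-06), or 0.21 with chromosome medians removed (adjusted p = 0.0421). Myc and the adjacent Pvt1 locus were called in opposite directions. The log2 fold changes of the other 4 tested loci within 2 Mb of Myc were -1.11 ± 0.13 for Fam84b (adjusted p = 2.03e-05), -0.42 for 9930014A18Rik, 0.17 for Tsg101-ps and 0.05 for Fam49b, and the last 3 did not pass the threshold (adjusted p = 0.184, 0.694 and 0.443). Once the chromosome median was removed, Fam84b was at -1.71 (adjusted p = 8.82e-07), 9930014A18Rik at -1.01 (adjusted p = 0.00622) and Fam49b at -0.55 (adjusted p = 3.77e-06), all called lower, while Tsg101-ps, at -0.42, did not pass (adjusted p = 0.318). Within 2 Mb, Pvt1 was thus above the median of chromosome 15, and these 4 loci, like Myc, had values below it. Fam84b and 9930014A18Rik have the same coordinates in the file, and fragments may be shared between them.

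Mycl encodes L-MYC, a relative of MYC with weaker transforming activity, and it lies on chromosome 4. Its level was low, at 2.54, 2.84 and 2.27 CPM in WT and 4.09, 4.15 and 3.55 CPM in Yme1l-/- cultures. All Yme1l-/- cultures lay above all WT cultures. The mean rose from 2.55 ± 0.287 to 3.93 ± 0.326 CPM, a log2 fold change of 0.62 ± 0.14 (edgeR, adjusted p = 0.00218), the largest increase among the members tested. The increase was 0.72 with chromosome medians removed (adjusted p = 0.000968), and it passed in all 6 fits that left out 1 culture, with adjusted p of at most 0.0129.

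Mycn encodes N-MYC, best known from neural tissue and neuroblastoma, and it was barely detected. Its fragments numbered 6, 18 and 6 in WT and 1, 4 and 7 in Yme1l-/- cultures, and the filter on low counts kept it out of the test. The WT culture with 18 fragments stood apart from the other 5 libraries. In a fit with no such filter, the log2 fold change of Mycn was -1.78 ± 0.60 (adjusted p = 0.00903), and without WT replicate 2 it was -1.06 (adjusted p = 0.302). In the other fits that left out 1 culture it ran from -1.46 to -2.33 and passed the threshold. Of the 10 fibroblast markers, the same WT culture was the highest of the WT cultures for 6, the lowest for 3 and between the others for 1. It was the highest for the matrix genes Col3a1 (86.3, 301 and 91.1 CPM in the WT cultures) and Dcn (1.57, 7.85 and 1.56 CPM), and the lowest for Col1a1 (1666, 1506 and 1675 CPM), Col1a2 (1742, 1670 and 1754 CPM) and Vim (2731, 2504 and 2582 CPM). The markers named were picked after their values were seen, and their relation to Mycn was not tested.

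Max, whose product is the partner shared by the MYC, MXD, MNT and MGA proteins, stood at 59.5, 60.4 and 55.3 CPM in WT and at 43.9, 41.4 and 39.6 CPM in Yme1l-/- cultures. No Yme1l-/- culture reached the lowest WT culture. The mean fell from 58.4 ± 2.73 to 41.6 ± 2.17 CPM, or to 71.4% of WT, with a log2 fold change of -0.49 ± 0.06 (adjusted p = 1.32e-05). Max lies on chromosome 12, which had the lowest median log2 fold change of all chromosomes, -0.44. With chromosome medians removed, the log2 fold change of Max was -0.05 ± 0.06 and the call was lost (adjusted p = 0.456). Of the other 502 tested loci of chromosome 12, 44.4% had a lower value than Max, so the decrease of Max was about that of its chromosome. Of the partners of the activating dimer, Myc thus lay well below the median of its chromosome and Max close to that of its own.

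**Figure D3:**
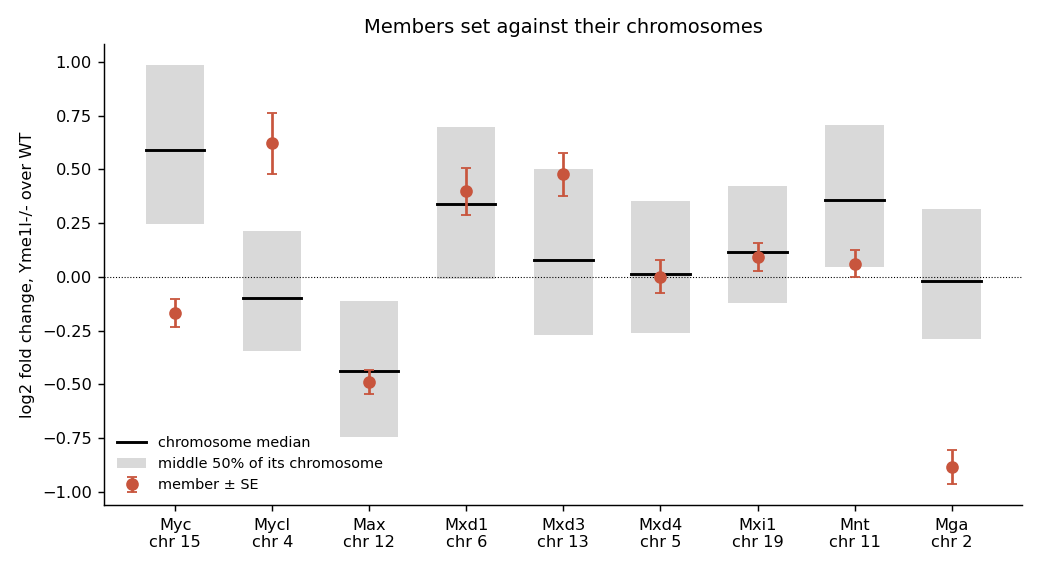
Log2 fold change (Yme1l-/- over WT) of each tested member with its SE, set beside the median of the other tested loci of its chromosome (black line) and the middle 50% of them (grey bar). Myc and Mga lie below the grey bar and Mycl above it, whereas Max and Mxd1 lie close to the black line.

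Among the antagonists of MYC, Mxd1 encodes MAD1, which takes the place of MYC on MAX as cells stop dividing. It stood at 7.73, 9.23 and 8.12 CPM in WT and at 9.74, 10.9 and 12.4 CPM in Yme1l-/- cultures. The groups did not overlap, though the lowest Yme1l-/- culture was only slightly above the highest WT culture. The log2 fold change was 0.40 ± 0.11 (adjusted p = 0.00757). The median of its chromosome, chromosome 6, was 0.34, and with chromosome medians removed Mxd1 changed by 0.06 and did not pass (adjusted p = 0.673).

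Mxd3 encodes MAD3, the member of the group found in cells in S phase. It stood at 14.7, 13.2 and 14.7 CPM in WT and at 22.8, 17.5 and 19.1 CPM in Yme1l-/- cultures. All Yme1l-/- cultures were higher. The mean rose from 14.2 ± 0.872 to 19.8 ± 2.73 CPM, a log2 fold change of 0.48 ± 0.10 (adjusted p = 0.0012), and it was 0.40 with chromosome medians removed (adjusted p = 0.00454). The value is uncertain in what it counts. The coordinates given to Mxd3 (chr13:55319743-55329823) are longer than the annotated gene (chr13:55325168-55329823). The same coordinates are given to Rab24, on the same strand, and Prelid1, on the opposite strand. They are thus shared and need not be the stretch counted for Mxd3. Prelid1 shares 105 exonic bases with Mxd3. Rab24 and Prelid1 were counted separately from Mxd3. Rab24 had a log2 fold change of 0.22 (adjusted p = 0.0088) and Prelid1 one of -0.27 (adjusted p = 0.000387). Whether the counting used strand is not given in the sources used here.

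The remaining MXD genes did not pass the threshold. Mxd4, which encodes MAD4 and is best known from differentiating cells, stood at 39.1, 36.5 and 45.8 CPM in WT and at 39.0, 40.8 and 41.5 CPM in Yme1l-/- cultures. The Yme1l-/- cultures fell inside the WT range. Its log2 fold change was 0.00, with a 95% interval from -0.17 to 0.17 (adjusted p = 0.992). Mxi1, whose product is another partner of MAX that opposes MYC, stood at 21.6, 24.8 and 22.6 CPM in WT and at 24.4, 24.4 and 24.9 CPM in Yme1l-/- cultures. The spread was wider in WT, and its cultures overlapped those of Yme1l-/-. Its log2 fold change was 0.09, with an interval from -0.05 to 0.24 (adjusted p = 0.223). The antisense or opposite-strand genes annotated over exons of these genes, Gm42846 at Mxd4 and Gm10197 at Mxi1, had 0 fragments in all 6 libraries.

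Mnt, the most widely expressed antagonist, stood at 30.4, 29.2 and 32.9 CPM in WT and at 30.5, 32.5 and 33.4 CPM in Yme1l-/- cultures. The groups overlapped. Its log2 fold change was 0.06, with an interval from -0.08 to 0.20 (adjusted p = 0.403). Mnt lies on chromosome 11, whose median of 0.36 was the next highest after that of chromosome 15. With chromosome medians removed, Mnt turned to a decrease of -0.30 ± 0.06 that passed the threshold (adjusted p = 0.00157). Its direction thus depends on whether it is read against all loci or against its chromosome.

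Mga had the largest log2 fold change of the 9 members tested, while that of the sparsely counted Mycn, given above from a fit without the filter, was larger. It stood at 155, 174 and 185 CPM in WT and at 83.5, 100.4 and 94.0 CPM in Yme1l-/- cultures. Every Yme1l-/- culture was far below every WT culture. The mean fell from 171 ± 15.2 to 92.7 ± 8.52 CPM, to 54.1% of WT, with a log2 fold change of -0.89 ± 0.08 (adjusted p = 3.49e-06). A change of at least this size in either direction was seen in 21.0% of all loci tested. The median of chromosome 2, where Mga lies, was -0.02, and with chromosome medians removed the log2 fold change was -0.87 (adjusted p = 5.57e-06). Of the other 1083 tested loci of chromosome 2, 8.68% had a lower value. The 88 other tested loci within 5 Mb had a median of 0.20, against which Mga lay at -1.09.

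With chromosome medians removed, 2 members were higher and 3 lower, against 31.1% and 31.7% of all loci (62.8% in either direction). Mycl and Mxd3 made up the first group and Myc, Mnt and Mga the second. Mycl, Mxd3 and Mga were the 3 members whose calls held in all 13 alternative fits.

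For levels between genes, CPM was divided by the length of the annotated exons (GENCODE). Per kb of exon, Myc was the most abundant member in both genotypes, at 71.4 ± 3.61 CPM per kb in WT and 63.5 ± 5.78 in Yme1l-/- cultures, followed by Max at 29.8 ± 1.39 and 21.3 ± 1.11. Next in WT came Mga at 12.3 ± 1.09, Mxd3 at 10.7 ± 0.657 and Mxd4 at 10.4 ± 1.24, with the Mxd4 cultures overlapping those of both others, then, without overlap between neighbours, Mnt at 6.71, Mxi1 at 3.46, Mxd1 at 1.79, Mycl at 0.697 and Mycn at 0.109. In Yme1l-/- cultures Mga, at 6.65 ± 0.611, came after Mxd3 (14.9 ± 2.06), Mxd4 (10.4 ± 0.330) and Mnt, and its cultures overlapped those of Mnt. The deposited FPKM, a single value per genotype, gave the same order in WT. In Yme1l-/- cells it placed Mga, with an FPKM of 15.6, above Mxd4, with one of 11.7, so the rank of Mga there differed between these measures.

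**Figure D4:**
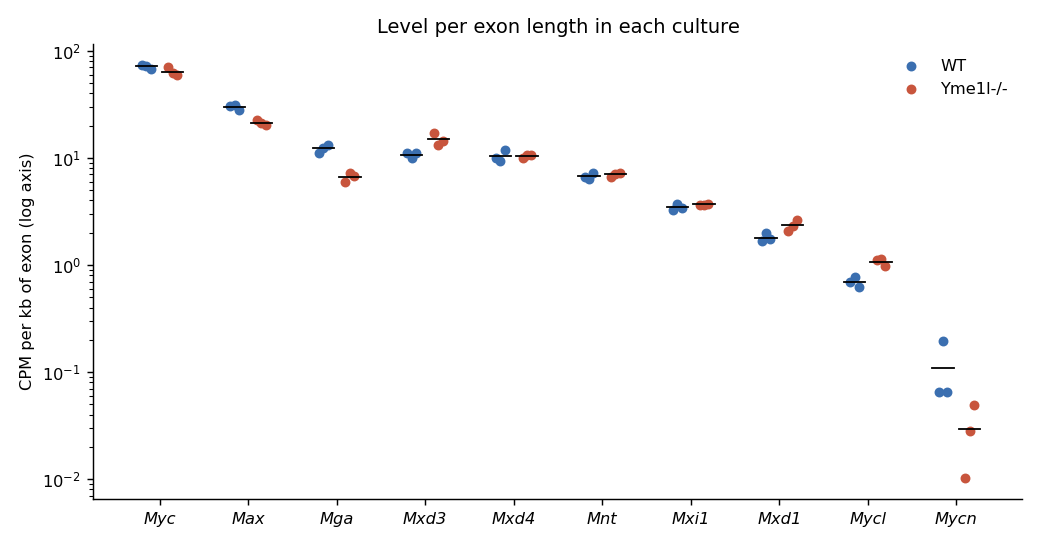
Level of each member per kb of annotated exon (CPM per kb, log axis) in the 3 WT and 3 Yme1l-/- cultures, with genes in the order of their WT mean. Myc and Max lead in both genotypes, and Mga moves from 12.3 to 6.65 CPM per kb while Mxd4 stays at 10.4.

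These levels can be added up by role, as a description of transcripts and not of proteins. The antagonists together (Mxd1, Mxd3, Mxd4, Mxi1, Mnt and Mga) came to 45.4 ± 2.67 CPM per kb in WT and 45.03 ± 0.902 in Yme1l-/- cultures. Mga held 27.1% ± 1.52 of this sum in WT and 14.8% ± 1.62 in Yme1l-/- cultures. Without Mga the antagonists came to 33.1 ± 1.92 and 38.4 ± 1.46 CPM per kb. The ratio of antagonists to Myc, Mycl and Mycn was 0.631 ± 0.071 in WT and 0.700 ± 0.0581 in Yme1l-/- cultures, with overlapping cultures. The ratio of Max to these genes was 0.413 ± 0.00698 and 0.330 ± 0.0126, without overlap. These sums were not corrected for chromosome medians. With those removed, the log2 fold change was -0.05 for Max and -0.76 for Myc. The fall of this ratio thus holds only without that correction. Myc held 48.4% of the summed level of the network in WT and 48.5% in Yme1l-/- cultures. With the deposited FPKM values, which have no replicates, the antagonists came to 65.9 in WT and 58.8 in Yme1l-/- cells, and Mga held 44.1% and 26.5% of that sum. Their ratio to Myc, Mycl and Mycn was then 0.719 in WT and 0.693 in Yme1l-/- cells, so its direction differed between these measures, which also differ in more than length scaling, and the cause was not tested. The ratio of Max to these genes was lower in Yme1l-/- cells on this scale too, which is also uncorrected for chromosomes, at 0.371 and 0.287. The share of Myc was 47.3% and 49.8%.

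Partners and targets of the members were followed in 7 lists, with 1 gene, Wdr5, in 2 of them. The share of tested genes that were called, which over all loci was 67.7% (33.6% higher, 34.1% lower), was 75% for the MLX arm, 66.7% for the polycomb complex, 88.9% for the SIN3 corepressor, 64.3% for MYC cofactors, 85.7% for MYC turnover, 71.9% for activated targets and 100% for repressed targets. The arm of the network built on MLX senses glucose through MLXIP (MondoA) and MLXIPL (ChREBP), and its list also held 2 target genes. Of the 5 genes 4 were tested. The 2 targets were higher and 1 factor was lower, with a median log2 fold change of 0.46 over factors and targets together. Mlx fell by 0.21 (adjusted p = 0.0091), with a log2 fold change of -0.57 once the median of chromosome 11 was removed (adjusted p = 1.09e-05), Mlxip stood at 0.03 (adjusted p = 0.743), and Mlxipl, with at most 4 fragments in a library, was not tested. The glucose-responsive arrestin genes Txnip and Arrdc4, targets of MondoA, rose by 0.90 ± 0.07 and 2.02 ± 0.10 on the log2 scale (adjusted p = 5.21e-07 and 1.25e-08). Arrdc4 went from 4.63 ± 0.468 to 18.8 ± 1.21 CPM.

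Of 12 genes for the polycomb complex that contains MGA, 3 were higher and 5 lower, with a median of 0.00. E2f6, the E2F family repressor of that complex, fell by 1.63 on the log2 scale, from 33.6 ± 1.26 to 10.9 ± 0.959 CPM (adjusted p = 7.2e-09), and its log2 fold change was -1.20 with the median of chromosome 12 removed. Mga and E2f6 were both lower with and without that correction. Ring1, which encodes a ubiquitin ligase of polycomb complexes, rose by 0.79 (adjusted p = 1.02e-06), as did L3mbtl2 (0.79, adjusted p = 6.68e-08), which lies on chromosome 15 and stood at 0.20 with its chromosome's median removed. Among 9 genes of the SIN3 corepressor used by the MXD proteins and MNT, 3 were higher and 5 lower, with a median of -0.16. Sap30 was the lowest (-0.85, adjusted p = 1.47e-06) and Hdac2 the highest (0.30, adjusted p = 0.00012). After removal of chromosome medians 2 were higher and 2 lower, or 4 of 9 against 62.8% of all loci, Sap30 stood at -0.53 (adjusted p = 8.02e-05), Hdac2 lost its call (0.0003, adjusted p = 0.996) and Sap18 was the highest at 0.46.

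Of 14 MYC cofactor genes, 6 were higher and 3 lower, with a median of 0.12. After that correction these counts were 3 and 3 and the median was -0.001. Ccnt1, the cyclin of the elongation kinase, was the highest at 0.58 (adjusted p = 5.46e-06) and stood at -0.01 with the median of chromosome 15 removed, while Hcfc1 was the lowest at -0.36 (adjusted p = 0.000443) and was not called with the median of chromosome X removed (-0.15, adjusted p = 0.0665). Of 15 genes that set the turnover of MYC protein, 14 were tested, 3 were higher and 9 lower, with a median of -0.18. After removal of chromosome medians 4 were higher and 6 lower, and the 12 calls became 8 under upper-quartile scaling and without Yme1l-/- replicate 3. The gene not tested was Skp2, a ubiquitin ligase subunit of dividing cells, which was listed at 0 in 5 libraries and with 2 fragments in the remaining one, and whether this reflects its transcript or the counting was not tested. Usp28, which encodes a deubiquitinase that stabilizes MYC, fell by 0.54 (adjusted p = 4.18e-06) and had a log2 fold change of -0.18 with the median of chromosome 9 removed (adjusted p = 0.0125), and Btrc, which encodes a ubiquitin ligase subunit, rose by 0.68 (adjusted p = 2.94e-05). Before that correction, ubiquitin ligase genes of this list were called in either direction. Fbxw7 and Huwe1, named after their values were seen, were lower (-0.26 and -0.31). Neither was called with chromosome medians removed. What the list means for MYC protein was not tested.

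Of 32 genes that MYC is known to activate, 9 were higher, 14 lower and 9 not called, with a median of -0.07. After removal of chromosome medians 5 of them were higher and 12 lower, against 31.1% and 31.7% of all loci. Of 11 genes that MYC is known to repress, 5 were higher and 6 lower, with a median of -0.19. Ldha, the lactate dehydrogenase subunit of glycolytic cells, had the lowest value of the activated list, at -0.59 ± 0.07 (adjusted p = 1.62e-05), whereas Ccnd2, a cyclin of the G1 phase, rose by 0.75 ± 0.04 (adjusted p = 3.05e-08), and stood at 0.41 with the median of chromosome 6 removed. In the repressed list Gadd45a, a growth arrest gene, rose by 1.37 ± 0.15 (adjusted p = 1.61e-05) and Thbs1, which encodes the matrix protein thrombospondin, fell by 0.34 ± 0.06 (adjusted p = 0.000414). Cdkn1c, named after its values were seen, had 0 fragments in the Yme1l-/- libraries and was at least 27.6-fold lower there, and with it at this bound the median of the list was also -0.19. Both lists thus held genes called in either direction. Nme1 was counted in a locus merged with Nme2 and Gm20390, and its value cannot be given to a single gene.

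**Figure D5:**
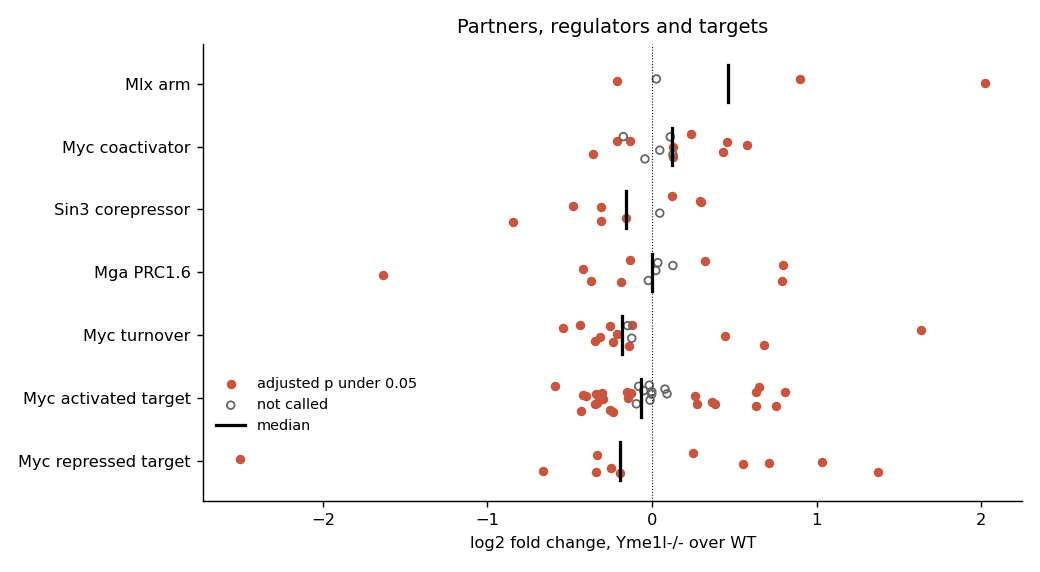
Log2 fold change (Yme1l-/- over WT) of every tested gene of the 7 lists, with filled points for genes that passed the threshold, open points for others and the list medians as black lines. Each list has points on both sides of 0, and Cdkn1c, below -2.5, is drawn at the edge.

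By their pattern over the 6 libraries, loci were compared with Myc among 8486 with a single gene symbol and a mean of at least 10 CPM. Those most like it were Prdx5 (root mean square difference 0.0163 in centred log2 CPM), Atp5j2 (0.0165) and Sertad1 (0.0192). Prdx5 encodes a peroxiredoxin and Atp5j2 a subunit of the ATP synthase. Their log2 fold changes were -0.18, -0.19 and -0.18. Closeness to the -0.17 of Myc was fixed by the selection, which used these same libraries.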

How the data were processed

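Poly(A)-selected RNA from 3 WT and 3 Yme1l-/- cultures was sequenced in stranded libraries. The authors mapped reads to mm10 (GRCm38) with HISAT2 2.0.4, assembled loci with StringTie 1.3.3 on Ensembl 91 and compared genotypes with Cuffdiff 2.2.1. The authors deposited raw fragment counts per locus, whole numbers without normalization, and a comparison table with 1 FPKM value per genotype, which was used only for the order of levels and sums by role. The fold changes, p-values and q-values of that table were not used. Treatment of fragments with several mapping positions is not given in the sources used here.

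Counts were tested with edgeR 4.0.16 (limma 3.58.1, R 4.3.3): TMM scaling, filterByExpr with a minimum count of 10, robust glmQLFit and two-sided glmQLFTest with genotype as the only term, and Benjamini-Hochberg adjustment over all 13867 loci tested at a threshold of 0.05. Steps were tested on simulated data. CPM used TMM library sizes, and the biological coefficient of variation was 8.47%. A count of 0 was bounded at 3 counts per library, which was 0.0589 to 0.0919 CPM and covers counting error only. The chromosome correction subtracted the median log2 fold change of each chromosome as an offset. Alternatives were other scalings, DESeq2 1.42.0, other filters, the replicate number as a block, chromosome medians removed and leaving out each culture. Fits of Mycn without the filter and without single cultures, and sums of members by role on FPKM, were added after seeing the data.

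The members and lists were chosen with earlier results of these data known. Named were all members, genes from the 3 highest and 3 lowest calls of each list, where the higher genotype averaged 10 CPM or more, the genes of the MLX arm, tested loci within 2 Mb of Myc and the 3 loci most like Myc. Exceptions are stated where they are named. Sequences came from RefSeq promoter windows (GRCm38.p6). Correlations of deviations between same-numbered cultures were 0.117, -0.080 and 0.043. These were small and of mixed sign, so pairing by number was not evident, though such values cannot exclude it. No pair of cultures within a genotype was as alike as sampling noise would make it.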

Additional observations from a re-analysis of the deposited data

How the results depend on the processing

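Of the 78 values that the 6 called members took in 13 alternative fits, 71 kept the call and 7 lost it, namely 5 of Myc and, with chromosome medians removed, those of Max and Mxd1. With chromosome medians removed Mnt turned from 0.06 to -0.30, and 4 in place of 8 genes of the SIN3 list were called. Set against neighbours within 5 Mb in place of the chromosome, Mxd1 went from 0.06 to -0.0506, Mxi1 from -0.02 to -0.17, Mnt from -0.30 to -0.38 and Mga from -0.87 to -1.09. The cause was not tested. The sign of Mxd4, which was never called, changed between fits (-0.07 to 0.10).

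Without the filter on low counts Mycn fell by 1.78, and without WT replicate 2 its log2 fold change was -1.06 and was not called. Pairing of the cultures by their numbers was not evident. The fit with the replicate number as a block called 9794 loci in place of 9387 and the same number of members, 6, with Myc at -0.17 (adjusted p = 0.00214), and no member changed its call. Upper-quartile scaling moved the median of all loci to 0.06 and the share of calls that were higher from 49.6% to 55.1%. Depth limits Mycn, with at most 18 fragments in a library, and Mycl, with 74 to 209.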
